A study of Mus musculus with 4 samples.

Results

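The natriuretic peptides Nppa and Nppb and their receptors Npr1, Npr2 and Npr3 were followed in mouse ventricle. Every probe set to which the platform annotation gives exactly 1 gene symbol, that symbol being one of these 5 genes, was a member, dim ones included. This gave 6 of the 12488 probe sets on the array, for 4 of the 5 genes and of the 8251 genes named in this way. Nppa, Nppb and Npr1 had 1 probe set each and Npr3 had 3. Npr2, the receptor of C-type natriuretic peptide, is not analysed here.

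The study asked which ventricular transcripts change when serum response factor (SRF) is overexpressed. The 4 arrays came from ventricles of mice at 6 months of age. The 2 control samples were from non-transgenic mice, described as wild type, and the other 2 from mice with a moderate, heart-restricted excess of SRF from a transgene. The sources used here do not give strain, sex, the promoter of the transgene, the number of founder lines or any pooling of animals. Nothing in the labels says that the samples of a group are different animals. Every p-value therefore rests on the spread between these samples alone, and that spread may be technical. Srf itself is not analysed here.

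Nppa encodes atrial natriuretic peptide and Nppb encodes B-type natriuretic peptide, hormones that heart muscle secretes when its wall is stretched. Both act through Npr1, a receptor whose inner part is a guanylyl cyclase that makes cGMP, and the cGMP acts on a kinase, on ion channels and on phosphodiesterases. Npr3, the clearance receptor, lacks the cyclase and takes the peptides up for breakdown. Nppa is made by the whole fetal heart and largely by the atria after birth, and its return in the ventricle is a common sign of a stressed or hypertrophic heart. SRF binds the CArG box, a run of A and T bases between a pair of C and a pair of G. CArG-like elements in the Nppa promoter, and sites for GATA, NK2, T-box and TEAD (MCAT) factors near both peptide genes, have long been studied as heart enhancer elements.

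The bases before the transcript start of each peptide gene are shown because both genes had higher signal in the SRF transgenic samples and SRF acts on promoters. The sequences are RefSeq promoter windows of build GRCm38.p6, which held all 5 genes, and each runs 5′ to 3′ on the + strand and ends at the base before the start. Nppa was read from chr4:148000472-148000721 and Nppb from chr4:147985650-147985899. Capitals mark matches to the motifs described after the sequences.
Nppa: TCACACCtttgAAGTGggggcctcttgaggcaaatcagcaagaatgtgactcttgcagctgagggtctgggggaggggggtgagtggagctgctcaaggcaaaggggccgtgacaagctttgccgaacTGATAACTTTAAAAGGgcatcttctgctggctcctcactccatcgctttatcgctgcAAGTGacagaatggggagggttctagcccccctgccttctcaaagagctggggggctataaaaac
Nppb: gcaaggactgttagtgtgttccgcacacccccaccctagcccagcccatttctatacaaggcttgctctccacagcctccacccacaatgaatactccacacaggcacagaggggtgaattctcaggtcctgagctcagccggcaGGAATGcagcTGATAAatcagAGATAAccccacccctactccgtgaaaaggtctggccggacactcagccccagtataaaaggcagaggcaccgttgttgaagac
The 2 genes lie in the same direction on chromosome 4, and these starts are 14822 bases apart, with Nppb upstream.

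Motifs were searched on both strands of the 250 bases before the start. A GATA motif, AGATAA or TGATAA, stood at 122 to 117 bases before the start of Nppa, and at 95 to 90 and 84 to 79 bases before the start of Nppb. At least 1 GATA motif was present in 16.6% of 32851 mouse promoters of the same length. The NK2 motif AAGTG, a core of Nkx2-5 sites, matched the Nppa window at 239 to 235 and at 65 to 61 bases, and 40.7% of all promoters held it. The T-box motif TCACACC matched Nppa at 250 to 244 bases (3.33% of promoters), and the MCAT motif CATTCC matched Nppb on the opposite strand at 105 to 100 bases (12.6%). No window of the 5 genes held a full CArG box (1.47% of promoters), a CArG box with 1 mismatch in its core (7.24%) or the E-box CACGTG (6.02%). After the Nppa sequence had been read, a CArG box with exactly 1 mismatch in its outer bases was searched for as well. It matched Nppa as CTTTAAAAGG at 116 to 107 bases, directly beside the GATA motif with no overlap, and 11.1% of all promoters held such a match. The windows of Npr1, Npr2 and Npr3 held none of the motifs. A match describes letters and is no evidence of binding, and a window without one says only that the letters are not there.

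**Figure D1:**
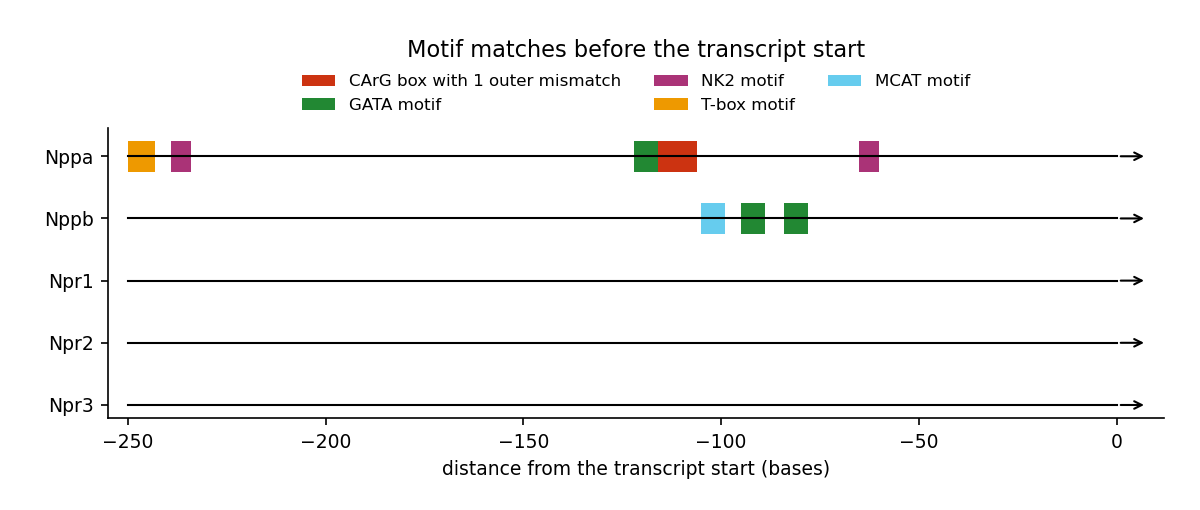
Matches to the searched motifs in the 250 bases before the transcript start of each gene, as distance in bases from the start (arrow). Nppa holds a GATA motif beside the CArG box with 1 outer mismatch, Nppb holds 2 GATA motifs and an MCAT motif, and the receptor genes hold no match.

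Of the 6 member probe sets, 3 were bright enough to be tested: Nppa, Nppb and 1 of the 3 for Npr3. Nppa and Nppb were higher in the SRF transgenic ventricle, and Npr3 did not pass the test. Values are signal intensities, and fold changes were taken on log2(signal + 9), which understates the change of dim probe sets. Adjusted p values are from limma with adjustment by Benjamini and Hochberg over all tested probe sets. Of 7453 probe sets, 591 (7.93%) had an adjusted p under 0.05, 303 of them higher (4.07%) and 288 lower (3.86%) in transgenic ventricle. Higher probe sets were 51.3% of those called, and 66.8% once arrays had been centred on their medians. The groups did not overlap in 55.9% of tested probe sets, and 27.8% did not overlap with the transgenic arrays higher. All 3 tested members belonged to the latter kind, which with 3 members is a description only.

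Nppa, the atrial peptide, had signals of 461 and 412 in the non-transgenic and 2024 and 1879 in the transgenic samples. The lowest transgenic array was well above the highest non-transgenic one, and the samples within a group lay close together. On the log2 scale the arrays of a group differed by 0.16 (non-transgenic) and 0.11 (transgenic), while the gap between the nearest arrays of different groups was 2.01. The means were 436 ± 34.6 and 1951 ± 102 (SD, n = 2 each), a log2 change of 2.14 ± 0.10 (SE) with a 95% interval of 1.90 to 2.37. This is a 4.41-fold rise with an adjusted p of 0.000215, higher in 2 of 2 transgenic samples. Nppa ranked 6 of 7453 tested probe sets by the size of its rise. The rise was as large without any 1 of the 4 arrays, with log2 changes from 2.06 to 2.22. An ordinary two-sample test without pooling of variance across probe sets called no probe set, Nppa included (adjusted p = 0.191, against 4.71e-06 to 0.0132 in limma under the other settings), and 1175 probe sets had an unadjusted p under 0.05 in it.

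Nppb, the B-type peptide, had signals of 3987 and 4414 in the non-transgenic and 6341 and 5479 in the transgenic samples. The groups did not overlap, but the nearest arrays of different groups were only 0.31 apart on the log2 scale, against 0.15 and 0.21 between arrays of one group. The means were 4201 ± 302 and 5909.9 ± 609.8 (SD, n = 2 each). The log2 change was 0.49 ± 0.09 (SE) with a 95% interval of 0.28 to 0.70, a 1.40-fold rise (adjusted p = 0.0226; higher in 2 of 2 transgenic samples). A change of this size or larger in either direction was seen in 18.1% of all tested probe sets. The call was lost without non-transgenic replicate 1 (0.42, adjusted p = 0.0738) and without transgenic replicate 1 (0.38, adjusted p = 0.0681), while the direction stayed the same. It was also lost without the filter on dim probe sets (adjusted p = 0.0768) and without the trend of variance on signal (adjusted p = 0.157). Over all 14 alternatives the adjusted p of Nppb ran from 0.00952 to 0.327.

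**Figure D2:**
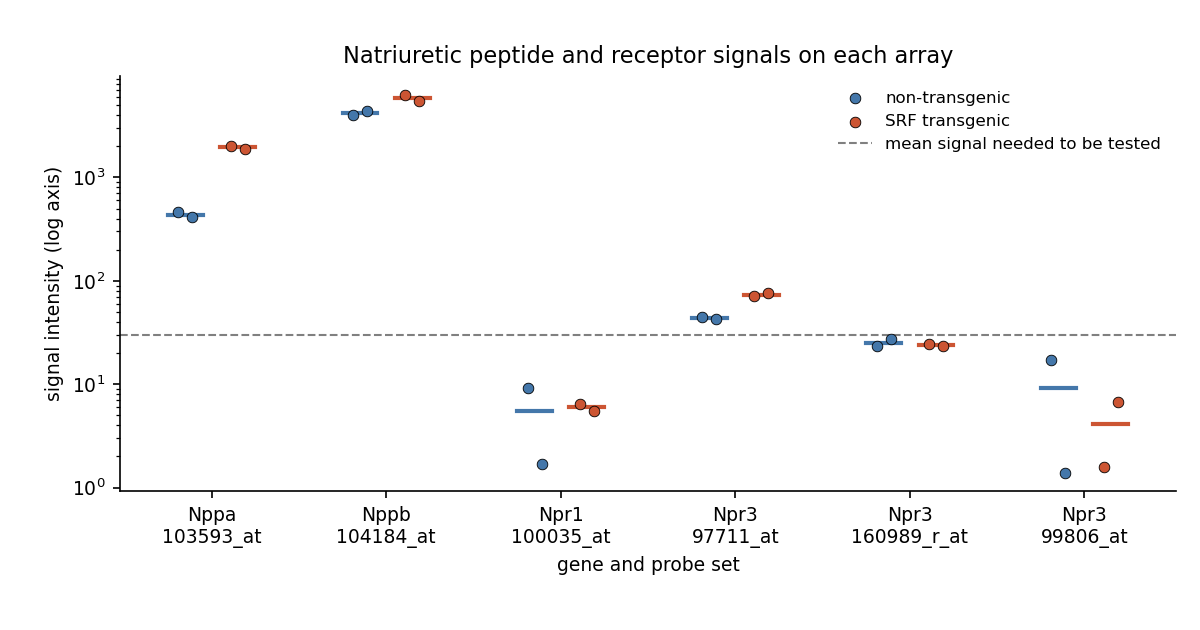
Signal intensity of the 6 member probe sets on each of the 4 arrays, on a log axis, with points for arrays, bars for group means and a dashed line at the mean signal needed to be tested. Nppa rose from 461 and 412 to 2024 and 1879, Nppb and the brightest Npr3 probe set had groups that did not overlap, and the other receptor probe sets lay under the line.

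The measured log2 changes of the peptide genes were unequal on these arrays. The difference between the log2 values of Nppa and Nppb on the same array was -3.09 and -3.39 in the non-transgenic samples and -1.64 and -1.54 in the transgenic samples. The groups did not overlap, and the Nppa change exceeded the Nppb change by 1.65 on the log2 scale, a ratio of the folds of 3.14. An exact two-sided permutation test over the arrays gave p = 0.333, which is the smallest p that 2 against 2 samples allow. The excess was 1.50 to 1.80 when any 1 array was left out. Signals of different probe sets have no common scale, so these differences do not say which peptide had more RNA.

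Npr3, the clearance receptor, was read by 3 probe sets, of which 1 was bright enough to be tested. Probe set 97711_at had signals of 44.8 and 42.8 in the non-transgenic and 70.8 and 76.0 in the transgenic samples. Its groups did not overlap, and each pair of replicates lay within 0.10 of each other on the log2 scale. The means were 43.8 ± 1.41 and 73.4 ± 3.68 (SD, n = 2 each), and the log2 change was 0.64 ± 0.20 (SE) with a 95% interval of 0.17 to 1.11. In limma the unadjusted p was 0.0144, and after Benjamini-Hochberg adjustment it did not pass (adjusted p = 0.106, from 0.0747 to 0.368 over 13 alternatives). The log2 change ran from 0.48 to 0.73 over the 13 alternatives that tested it. Several of these alter only the test or the filter and leave the change as it was. Because the groups did not overlap, leaving out single arrays could not turn its sign. Of all tested probe sets, 9.96% moved by as much or more in either direction.

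The other Npr3 probe sets were too dim to be tested, below the mean signal of about 30.0 that the filter set. Probe set 160989_r_at had signals of 23.5, 27.1, 24.3 and 23.5, in the order non-transgenic replicates 1 and 2 and transgenic replicates 1 and 2, and the groups overlapped. Its log2 change was -0.06, and 0.02 or 0.07 after median centring or quantile normalization. Probe set 99806_at had signals of 17.0 and 1.4 in the non-transgenic and 1.6 and 6.7 in the transgenic samples, with a log2 change of -0.35 that ran from -1.01 to 0.31 when single arrays were left out. When all probe sets were fitted without the filter, 2.65% of them passed, and these 2 did not (adjusted p = 0.938 and 0.744). Neither of these 2 repeated the rise of 97711_at, and whether they could have shown it at signals this low was not tested.

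Npr1, the guanylyl cyclase receptor of both peptides, had signals of 9.2 and 1.7 in the non-transgenic and 6.5 and 5.5 in the transgenic samples. The transgenic values lay between the non-transgenic ones. The means were 5.45 ± 5.30 and 6.0 ± 0.707 (SD, n = 2 each), the log2 change was 0.10, and the value without single arrays ran from -0.28 to 0.49. Fitted without the filter, Npr1 had an adjusted p of 0.888. At this signal a change of Npr1 was not detectable on these arrays, which is no evidence that its RNA stayed the same. The planned comparison of the Npr3 and Npr1 changes is therefore not read.

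**Figure D3:**
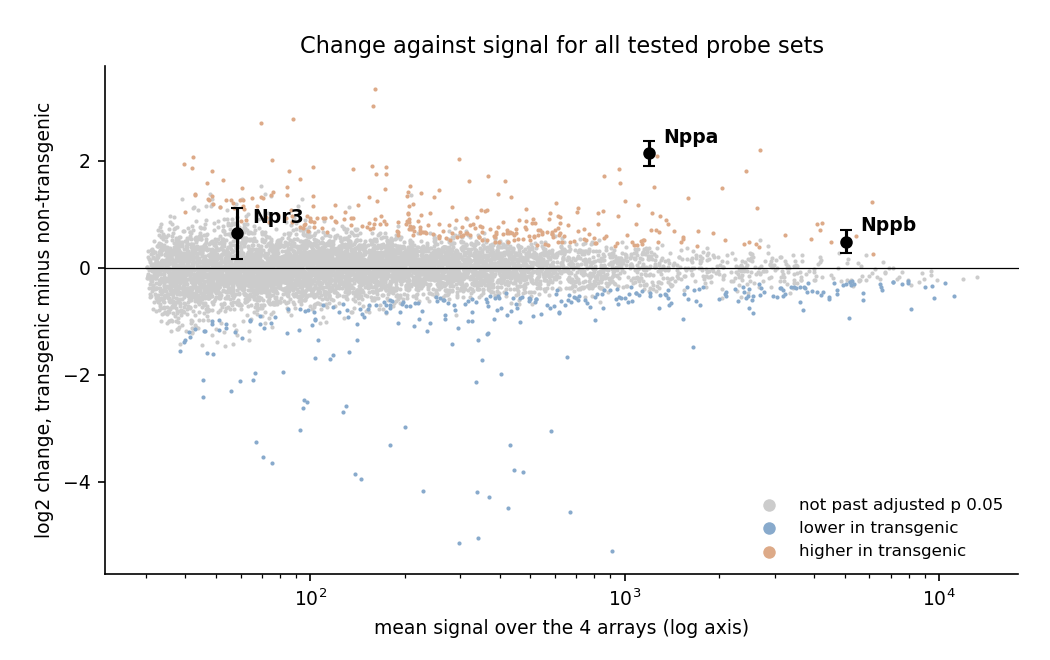
Log2 change (transgenic minus non-transgenic) against mean signal over the 4 arrays (log axis) for all 7453 tested probe sets, coloured by call, with the 3 tested members in black and their 95% intervals. Nppa at 2.14 stands among the largest rises at its signal, Nppb at 0.49 is just outside the uncalled band, and Npr3 at 0.64 lies inside it.

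The profiles of the peptide genes were compared with the 6731 tested probe sets of other single genes, each set to 0 at its non-transgenic mean on the log2 scale. Likeness was the root mean square difference over the 4 arrays. The 5 nearest to Nppa were Ccn2, a matricellular growth factor (0.04), Postn, a matrix protein of activated fibroblasts (0.10), Myl1, a fast skeletal muscle light chain (0.10), Procr, the protein C receptor (0.13), and Plagl1, an imprinted zinc finger factor (0.14). Ccn2 went from 484 and 461 to 2146 and 1965, the same order among the 4 arrays as Nppa. The 5 nearest to Nppb were Arpc2, a subunit of the actin-nucleating Arp2/3 complex (0.02), Otulinl (0.02), Nup93, a nuclear pore protein (0.03), Tubb3, a beta tubulin (0.03), and Rpl22, a ribosomal protein (0.03). All 5 neighbours of Nppa passed limma, and of those of Nppb only Arpc2 did (log2 change 0.51, adjusted p = 0.0355). With 4 arrays such likeness mostly reflects the size of the change between the groups.

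Genes that act with the peptides were taken from lists of processing enzymes, related peptides and cyclases, phosphodiesterases, kinases with their substrates, and transcription factors. These lists held 99 probe sets for 71 genes, of which 52 for 45 genes were tested. Of the 52, 3 were higher, 1 was lower and 48 did not pass the test, a share called of the same order as the 7.93% of all probe sets. The median log2 change was -0.04, against -0.01 over all tested probe sets.

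The 7 tested probe sets for enzymes that activate or degrade the peptides did not pass the test in either direction, with log2 changes from -0.29 to 0.15. Of the 12 probe sets of this list, 5 were below the filter. The peptidase Mme was among these 5, at 3.6 and 3.0 against 2.3 and 1.8, and could not be read. Corin, the heart protease that cleaves pro-atrial natriuretic peptide, had signals of 275 and 225 against 241 and 191, with overlapping groups. Ece1, the endothelin-converting enzyme, had a log2 change of -0.29, and the peptide-degrading insulysin Ide had 0.14 and 0.15 in its 2 tested probe sets. The protease Furin, which processes pro-peptides, was at 400.4 and 404 against 420.3 and 431. The 6 probe sets for related peptides and receptors were all below the filter. Among them Nppc, which encodes C-type natriuretic peptide, had 4.0 and 3.7 against 19.6 and 3.4, high on 1 transgenic array alone.

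The other source of cGMP, nitric oxide acting on soluble guanylyl cyclase, had 3 tested probe sets and none passed the test. Nos3, the endothelial nitric oxide synthase, went from 199 and 171 to 153 and 123, a log2 change of -0.40 ± 0.17 (SE; adjusted p = 0.199). Nos2, the inducible synthase, had -0.49 and the cyclase subunit Gucy1b1 had 0.07. The list of cGMP phosphodiesterase genes, subunits included, had 10 probe sets for 8 of its 15 genes. Pde2a, Pde3a and Pde5a were not among the 8 and were not read. Of the 10 probe sets, 4 were tested and none passed. Their log2 changes ran from -0.67 for Pde6a to 0.27 for Pde6d, and Pde1b, a calmodulin-dependent enzyme, had -0.31.

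In the list of cGMP-dependent kinase genes and substrates 5 probe sets were tested, all of them for genes other than the kinases, and 2 rose. The kinase gene Prkg2 was below the filter and Prkg1 had no probe set in the list, so the kinases were not read. Mrvi1, the IRAG protein through which the kinase acts on calcium release, went from 34.5 and 53.8 to 130.2 and 119.8, a log2 change of 1.36 ± 0.23 (SE; adjusted p = 0.0173). The Mrvi1 call ended without transgenic replicate 1 (log2 change 1.30). It ended also with no filter and without the trend of variance on signal (adjusted p = 0.0528 and 0.0657 in limma), and in the ordinary test. Csrp2, a LIM protein of smooth muscle whose place among the kinase substrates is uncertain, went from 122 and 188 to 494 and 475, a log2 change of 1.62 ± 0.20 (SE; adjusted p = 0.00551). The Csrp2 call ended without the trend (adjusted p = 0.0589 in limma) and in the ordinary test. Vasp, an actin regulator and a classical substrate of the kinase, had 0.33 with groups that did not overlap (adjusted p = 0.183). Mybpc3, cardiac myosin-binding protein C, had -0.23 (adjusted p = 0.0577), and Rgs2, which damps G protein signals, had 0.31.

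Of 33 tested probe sets for transcription factors and cofactors known to act on Nppa or Nppb, 31 did not pass the test, 1 rose and 1 fell. Ankrd1, a stress-induced cardiac cofactor, went from 5520 and 5716 to 6874 and 6586, a log2 change of 0.26 (adjusted p = 0.0445). Its call ended without any 1 of the 4 arrays (adjusted p from 0.0847 to 0.219). It ended also with the replicate number as a block and with no filter (adjusted p = 0.0562 and 0.153 in limma). The same held without the trend of variance on signal (adjusted p = 0.295 in limma) and in the ordinary test (adjusted p = 0.273). Hopx, a homeodomain protein that binds SRF and restrains it, fell by 0.84 ± 0.08 (SE), from 3116 and 3439 to 1803 and 1847 (adjusted p = 0.00213). The Hopx call ended without the trend of variance on signal (adjusted p = 0.0657 in limma) and in the ordinary test. Nkx2-5, the cardiac NK2 factor, had 745 and 798 against 973 and 976, a log2 change of 0.33 that did not pass (adjusted p = 0.0760), and passed after median centring (0.41, adjusted p = 0.0481). Mef2d had 0.33 (adjusted p = 0.0981) and Jarid2, a chromatin cofactor that represses Nppa, had -0.57 (adjusted p = 0.0637).

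**Figure D4:**
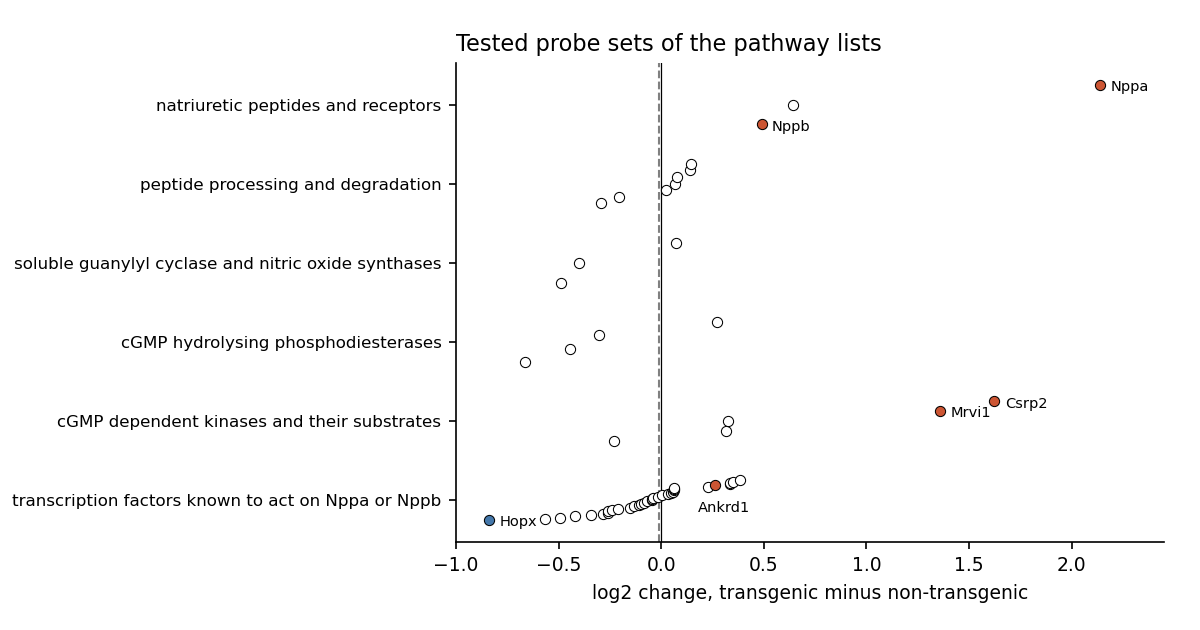
Log2 change (transgenic minus non-transgenic) of every tested member and pathway probe set, 1 row per list, with filled and named points for probe sets past an adjusted p of 0.05 and a dashed line at the median of all tested probe sets. Nppa and Nppb, with Csrp2, Mrvi1 and Ankrd1, are the called rises and Hopx is the called fall.

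Atrial muscle makes far more Nppa than ventricle, so atrial markers were read beside it. The list had 15 probe sets for 12 genes, of which 9 were tested, 1 was higher, 1 was lower and 7 did not pass. Myl7, the atrial regulatory light chain, rose with Nppa from 177 and 260.2 to 616 and 531 (log2 change 1.38 ± 0.19, SE; adjusted p = 0.00898). Myl4, the atrial essential light chain, had 0.92 in 160487_at (adjusted p = 0.0635) and 0.10 in 100828_at (adjusted p = 0.796). Dkk3, a secreted glycoprotein, went from 20.4 and 56.2 to 107 and 104 (log2 change 1.38, adjusted p = 0.0667), and the connexin Gja5 had -0.63 (adjusted p = 0.102), both without overlap of the groups. Stard10 fell by 1.03, and the channel Kcna5, with -0.16, had overlapping groups. Bmp10, a secreted factor of atrial muscle, was dim, at 5.5 and 6.8 against 20.6 and 23.6. Sln, the calcium pump regulator abundant in atria, was near the floor on all arrays, at 10.1 and 22.8 against 19.6 and 6.6. The summed signal of the 15 probe sets was 1290 to 1455 on non-transgenic and 1715 to 1894 on transgenic arrays. Without Myl7 the sums of the groups overlapped. In 3 tested probe sets of the list the groups did not overlap with the transgenic arrays higher, and in 2 with them lower. Over all tested probe sets the groups did not overlap in 55.9%. The part of atrial tissue in the Nppa difference was not tested.

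Markers of the cell types that carry the receptors, and of others in the ventricle, were read in the same way. Sums of signal are over all probe sets of a list, the untested ones included. In bulk tissue, more cells of a type and more RNA per cell cannot be told apart. Of 12 tested endothelial probe sets, Eng (log2 change 0.48) was higher, Tie1 (-0.62 in 1 of 2 probe sets) was lower and 10 did not pass. The summed signal of all 14 was 4255 to 4316 in non-transgenic and 4476 to 4518 in transgenic samples, and 2985 to 3061 against 2735 to 2738 without Eng. Of 9 tested smooth muscle probe sets, Acta2 rose (1.85), 0 fell and 8 did not pass, with sums of 2012 to 2079 and 3322 to 3339, and of 1616 to 1648 and 1800.2 to 1844 without Acta2. Fibroblast markers were higher in 9 of 17 tested probe sets with 0 lower (8670.0 to 8788 against 13567 to 14068), and macrophage markers in 5 of 11 with 0 lower (2513 to 2822 against 4124 to 4208). Epicardial markers were higher in 1 of 3, adipocyte markers lower in 1 of 3, skeletal muscle markers lower in 1 of 6, and blood genes were not called in 3. All 10 ventricular muscle probe sets were bright enough to be tested, 2 of them higher (both Myh7) and 5 lower, with sums of 76777 to 78644 and 65829 to 68759. Hepatocyte transcripts stood out on the non-transgenic arrays, with 9 of 10 tested probe sets lower in transgenic samples and sums of 3216 and 6086 against 289 and 357. The part of these cell types in the Nppa and Nppb differences was not tested.

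**Figure D5:**
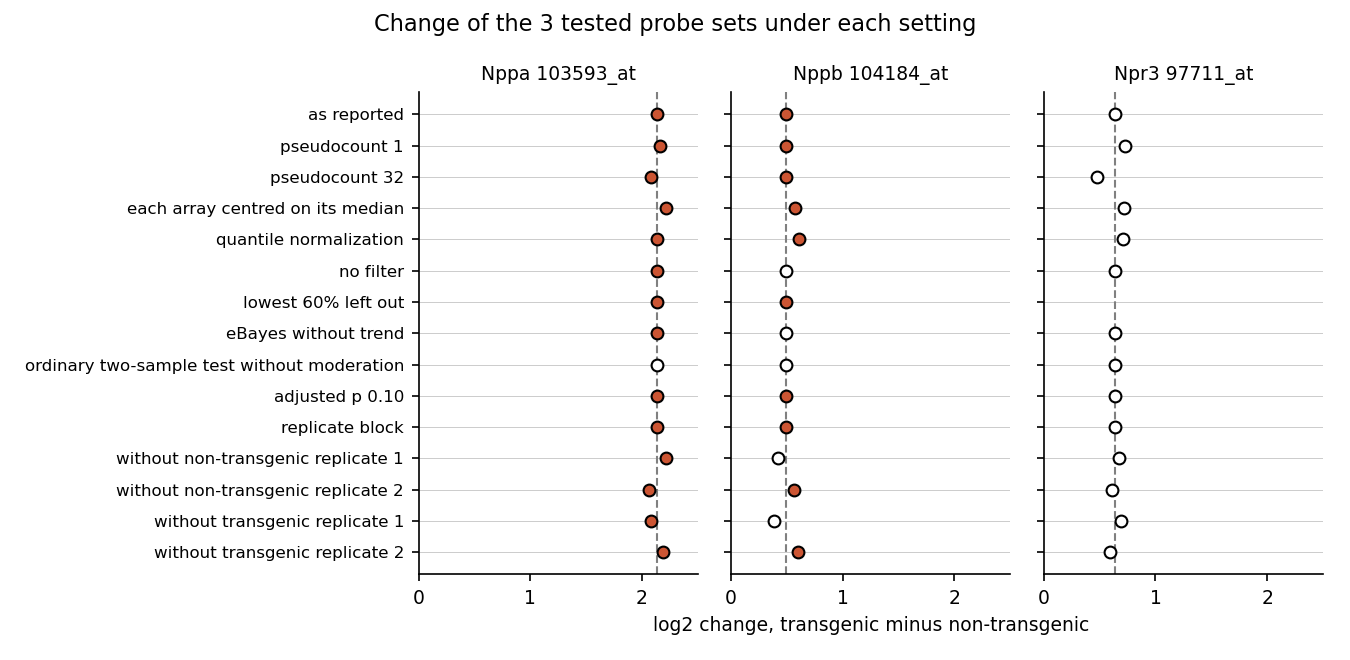
Log2 change (transgenic minus non-transgenic) of the 3 tested member probe sets under each setting, filled where it passed the threshold and left out where the probe set was not tested, with the reported value as a dashed line. Nppa lost its call only in the ordinary two-sample test, Nppb lost it in 5 of 14 alternatives, and Npr3 passed in none.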

How the data were processed

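Ventricular RNA in 2 non-transgenic and 2 transgenic samples was labelled with biotin for Affymetrix arrays, per the labels' protocols, with 1 array per sample. The deposited values are signal intensities on a linear scale, 1 per probe set and array. From the values, each array was scaled to a common trimmed mean of 150.1, while the sources used here do not give the software, the scaling method or detection calls. Array medians were 49.05 to 54.0. Replicates correlated at 0.971 and 0.981 and pairs across groups at 0.942 to 0.949, across tested probe sets.

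Values were used as log2(signal + 9). The 66 control probe sets and the lowest 40% by mean log2 signal over all arrays were left out, which left 7453. The comparison used limma 3.58.1 (lmFit, then eBayes with a trend on signal; R 4.3.3). Tests were two-sided, and p-values were adjusted over all tested probe sets by the method of Benjamini and Hochberg, with a threshold of 0.05. The prior had 5.05 and the design 2 degrees of freedom. The fit was tested on data simulated with the spread that limma fitted. It recovered 48.8% of 2-fold and 95.9% of 4-fold changes, and 4.41% and 5.61% of its calls were false. A probe set that did not pass may therefore still have changed. Gene names came from the platform annotation (10833 probe sets with 1 symbol, 396 with several, 1193 unlisted, controls left out). With controls counted, 10839 probe sets with 1 symbol had a gene number matched to RefSeq, and 0 symbols changed.

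The members and lists were chosen with earlier results of these data known. Named genes were all members, pathway probe sets past the threshold with up to 3 more per list by smallest p, called atrial, endothelial and smooth muscle markers, and the 5 nearest profiles to Nppa and to Nppb. Furin, Mme, Nppc, Prkg2, Bmp10, Sln, Dkk3, Myl4, Gja5, Kcna5 and Myh7 were named after their values were seen. The replicate numbers were not taken as pairs. Deviations of same-numbered arrays correlated at -0.06, which shows no shared deviation. It cannot say whether same-numbered samples were handled together. Alternatives were other pseudocounts, scalings, filters, variance models and thresholds, a replicate block, and leaving out each array.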

Additional observations from a re-analysis of the deposited data

How the results depend on the processing

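Over 14 alternatives, Nppa kept its direction, with log2 changes of 2.06 to 2.22, and lost its call in 1, the ordinary test (2.14, adjusted p = 0.191). Several alternatives alter only the test or the filter and leave the change as it was. Groups that do not overlap fix the direction when single arrays are left out. At the looser threshold of 0.10 a call cannot be lost. Nppb kept its direction and lost its call in 5: no filter, eBayes without trend and the ordinary test (0.49 in each; adjusted p = 0.0768, 0.157 and 0.327), and 2 of the 4 fits without 1 array (0.38 to 0.59 over the 4). In these fits the lone sample of a group is assumed to vary like the others. The brightest Npr3 probe set was not called in any of its 13 alternatives (0.48 to 0.73; 0.60 to 0.69 without 1 array); with the lowest 60% left out it was not tested. The Nppa minus Nppb difference was 1.50 to 1.80 in its 6 alternatives. Over all probe sets, 172 were higher and 157 lower with no filter, 44 and 34 without trend, 0 and 0 in the ordinary test (1175 with an unadjusted p under 0.05), 477 and 484 at an adjusted p of 0.10, and 125 to 232 and 158 to 191 without 1 array. Of the pathway probe sets, 1 was higher with no filter, 3 were lower with the lowest 60% left out, 0 were higher and 0 lower without trend and in the ordinary test, 5 were higher and 3 lower at 0.10, and 1 to 2 were higher and 1 lower without 1 array. With the replicate block 348 probe sets were higher and 345 lower, Nppa, Nppb and Npr3 kept their side of the threshold (adjusted p = 4.71e-06, 0.0112 and 0.145 in limma), and the pathway counts were 2 and 1. The cause of these differences was not tested. Npr1 and the dim Npr3 probe sets had too little signal to read a change. The number of arrays limits every value.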
